A study of Homo sapiens with 24 samples.

Results

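To describe, gene by gene, how depletion of GATA2 altered the response of LNCaP cells to enzalutamide, the difference between 2 responses was measured for every gene: the log2 fold change with enzalutamide in cells transfected with GATA2 siRNA (siGATA2) minus the log2 fold change in cells transfected with control siRNA (siControl). This difference is called the interaction. A negative value means that the change with enzalutamide was lower in siGATA2 cells than in siControl cells, and a positive value that it was higher. All 12 siRNA libraries of the 24 samples were used, 3 each of siControl with vehicle, siControl with enzalutamide, siGATA2 with vehicle and siGATA2 with enzalutamide, and 20369 genes could be tested. LNCaP is an established human prostate cancer cell line whose growth responds to androgens, and all 12 libraries came from this 1 line. Every culture was kept in medium with charcoal-stripped serum, which removes steroids, so the vehicle cells were not androgen-stimulated. Per the study's methods, the siRNA was a pool of 4 duplexes, treatment began 72 h after transfection, and enzalutamide was given at 25 µM for 24 h. The other 12 samples hold a separate experiment in untransfected LNCaP cells with vehicle, DHT (10 nM) or enzalutamide (10 µM), of which the 24 h samples were read here. The labels call the siRNA samples of a group biological replicates without saying what was repeated, so the p-values measure the spread between these samples, which may in part be technical.

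Enzalutamide is an antiandrogen, a drug that blocks the action of androgens, the steroid hormones that drive the luminal prostate program and growth. GATA2 is a zinc-finger transcription factor that acts as a pioneer factor, opening chromatin at enhancers that other transcription factors then occupy, and it is required for expression of many androgen-regulated genes in prostate cells. A cell with less GATA2 can therefore differ from a control cell both in where it starts and in how far it moves when the drug is added. The interaction compares how far the cells moved, counted from each group's own vehicle level, so a different start also enters its value.

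The sequences of the siGATA2 pool are shown because they define the perturbation. Each is the sense sequence, 5′ to 3′, and capitals mark positions 12 to 18, the bases that pair with the seed (bases 2 to 8) of the antisense strand.
siGATA2-1: ucgaggagcugUCAAAGUg
siGATA2-2: acuacaagcugCACAAUGu
siGATA2-3: gaagagccggcACCUGUUg
siGATA2-4: gcccaggccuaGCUACUAu
All 4 matched the coding sequence of a GATA2 transcript of GENCODE v29 (GRCh38, minus strand). siGATA2-1 lay in exon 6 at chr3:128481203-128481221, siGATA2-3 in exon 5 at chr3:128481916-128481934, and siGATA2-4 in exon 3 at chr3:128485891-128485909. siGATA2-2 crossed the junction of exons 5 and 6, pairing with chr3:128481819-128481835 and chr3:128481317-128481318.

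GATA2 mRNA was measured first. It stood at 83.8, 77.0 and 86.1 RPKM (reads scaled by gene length and by the mapped reads of the library) in the siControl vehicle libraries and at 54.3, 53.4 and 46.6 RPKM in the siGATA2 vehicle libraries, so the groups did not overlap. The siGATA2 pool changed GATA2 by -0.68 on the log2 scale, so the loss of its mRNA was partial. With enzalutamide it was 128, 132 and 128 RPKM in siControl and 60.1, 64.7 and 61.5 RPKM in siGATA2 cells. GATA2 rose with enzalutamide in siControl cells (log2 fold change 0.65 ± 0.06 SE, limma adjusted p = 1.2e-05), and its interaction was negative (-0.38 ± 0.08 SE, adjusted p = 0.0082). All 12 luminal prostate markers passed 1 RPKM in siControl cells, with a summed level of 1690 to 1770 RPKM in siControl vehicle and 985 to 1010 RPKM in siGATA2 vehicle libraries. Of 17 markers of other cell types, 14 or more were under 1 RPKM in all libraries of each group, among them the basal keratin gene KRT5 and the leukocyte genes PTPRC and CD3E. The summed level of these markers was 16.9 to 18.3 RPKM in siControl vehicle and 25.7 to 30.7 RPKM in siGATA2 vehicle libraries, and its largest members were COL1A1 and CD68. Whether this difference has a part in the interactions was not tested.

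Depth differed little between the libraries. The deposited RPKM values of weakly expressed genes fell on steps of whole reads, and these steps placed the 12 libraries between 0.836 and 1.09 times the depth of siControl vehicle replicate 1. The total number of reads is unknown.

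The interaction was called (limma, Benjamini-Hochberg adjusted p below 0.05) in 5264 genes. It was negative in 2209 genes, 10.8% of those tested, and positive in 3055 genes, 15.0%. Fewer genes passed 2-fold: 103 had an interaction below -1 (0.506%) and 217 had one above 1 (1.07%). At these edges NKX2-8 stood at -1.003 and FOXD3 at -0.996, so genes on either side of the line hardly differed.

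The interactions were then read from the responses that make them up. In siControl cells enzalutamide raised 3612 genes (17.7%) and lowered 4970 (24.4%). In siGATA2 cells it raised 45 (0.221%) and lowered 39 (0.191%), and 2199 genes had an unadjusted p below 0.05. Both responses were fitted in 1 model with 3 libraries per group, and the median SE of a gene's log2 fold change was 0.0659 for each. Over the 20369 genes the log2 fold changes had an SD of 0.363 after control siRNA and of 0.164 after the siGATA2 pool. Of the 2209 genes with a negative interaction, 2106 (95.3%) rose in siControl cells without being called in siGATA2 cells. Of the 3055 with a positive interaction, 2940 (96.2%) fell in siControl cells without being called in siGATA2 cells. A negative interaction requires a siControl response above the siGATA2 response, and a positive one the reverse. Few genes of any kind were called in siGATA2 cells. Both shares thus follow largely from the choice of genes. Genes called in siGATA2 cells in the direction opposite to siControl cells numbered 4 in all.

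**Figure D1:**
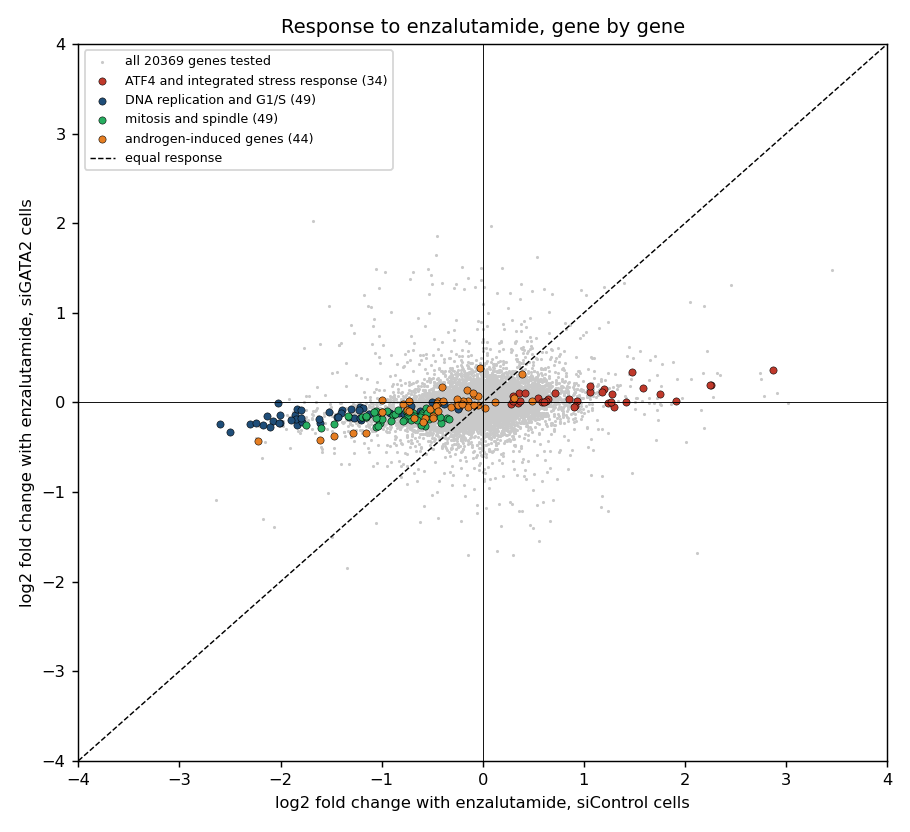
Each point is 1 of the 20369 genes tested, with its log2 fold change with enzalutamide in siControl cells (horizontal axis) against that in siGATA2 cells (vertical axis), on the log2(RPKM + 0.1) scale. Members of 4 gene lists are coloured and the dashed line marks equal responses. The cloud is wide along the horizontal axis (SD 0.363) and narrow along the vertical axis (SD 0.164), with the stress-response list to the right and the replication list to the left.

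The responses in the 2 kinds of cell shared no library, so one could be read for genes chosen by the other. The 298 genes that fell more than 2-fold in siControl cells had a median of -1.27 there and -0.163 in siGATA2 cells, and 275 of them (92.3%) were below 0 in siGATA2 cells. The 111 genes that rose more than 2-fold had medians of 1.41 and 0.11, and 83 of them (74.8%) were above 0. The siControl medians follow from the choice of genes, while the siGATA2 values were free to fall either way. Across all 20369 genes Pearson's r between the 2 responses was 0.222 and Spearman's rho 0.295, and the slope of the siGATA2 on the siControl response was 0.1; genes are not independent replicates, so this is a description. By the sign of the estimate, most genes that had moved far in siControl cells thus had a small siGATA2 response in the same direction. Over all genes tested the median siGATA2 response was -0.01. Few of the single responses passed the test. Of the 298 genes, 11 were called down in siGATA2 cells (3.69%) and 0 up. Of the 111 genes, 3 were called up (2.7%) and 1 down.

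The negative interactions were led by genes of the integrated stress response, the program in which phosphorylation of the initiation factor eIF2α favours translation of the transcription factor ATF4, which then raises genes for amino acid synthesis and import. Of 34 members tested, 32 had a negative interaction and 1 a positive one, and the median interaction was -0.93, beside 0.015 over all genes. The median change with enzalutamide was 0.92 in siControl and 0.04 in siGATA2 cells. Under the 21 alternative settings 30 to 33 members had a negative interaction. ALDH18A1, which makes a precursor of proline, was the exception, with an interaction of 0.18; it and PPP1R15A are named after their values were seen, as are the exceptions of the lists that follow. PPP1R15A, a regulatory subunit of the phosphatase that reverses eIF2α phosphorylation, was not called (-0.35, adjusted p = 0.057).

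CHAC1, an enzyme that degrades glutathione and a target of ATF4, had the largest negative interaction among genes with a mean log2(RPKM + 0.1) of at least 1, called well expressed here. It stood at 5.14, 4.75 and 5.02 RPKM in siControl vehicle and at 33.1, 37.7 and 40.5 RPKM in siControl enzalutamide libraries, against 1.87, 1.37 and 0.998 RPKM in siGATA2 vehicle and 1.78, 1.98 and 1.64 RPKM in siGATA2 enzalutamide libraries. The 3 siControl enzalutamide libraries lay far above the other 9, and the siGATA2 groups overlapped. Its interaction was -2.51 ± 0.24 (SE, adjusted p = 6.2e-05).

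DDIT3 encodes CHOP, a stress-induced transcription factor. Its level was 18.9, 18.03 and 18.7 RPKM in siControl vehicle, 77.7, 90.3 and 99.7 RPKM in siControl enzalutamide, 29.4, 28.8 and 26.1 RPKM in siGATA2 vehicle, and 31.1, 32.8 and 32.5 RPKM in siGATA2 enzalutamide libraries. The siGATA2 cells thus began above the siControl cells, and the siGATA2 change with enzalutamide was 0.19 ± 0.08 (SE, adjusted p = 0.41). The interaction was -2.06 ± 0.11 (SE, adjusted p = 1.6e-06). ATF4 mRNA itself rose from 124 ± 1.48 to 286 ± 10.5 RPKM (SD, n = 3) in siControl cells and measured 91.7 ± 2.84 and 101 ± 2.86 RPKM in siGATA2 cells, with an interaction of -1.06. The pseudokinase gene TRIB3 had an interaction of -1.89 and FAM129A, a translation regulator, one of -2.05. ASNS, which makes asparagine, was the 1 member called in siGATA2 cells: it rose by 1.48 in siControl and by 0.34 in siGATA2 cells (adjusted p = 0.0037), and its interaction was -1.14.

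Genes that supply amino acids and charge tRNAs moved in the same direction in part. SLC7A11, the cystine importer that feeds glutathione synthesis, was at 15.1, 16.7 and 14.4 RPKM in siControl vehicle and 34.8, 35.1 and 40.1 RPKM in siControl enzalutamide, and at 6.65, 6.49 and 7.12 RPKM in siGATA2 vehicle and 8.74, 8.24 and 8.50 RPKM in siGATA2 enzalutamide libraries. The siGATA2 groups did not overlap, but their difference (0.33 ± 0.07 SE) did not pass the test (adjusted p = 0.077), and the interaction was -0.92. Its partner chain SLC3A2 had an interaction of -0.99 and the large neutral amino acid transporter SLC7A5 one of -0.87. Of 20 amino acid transporters tested, 9 had a negative and 2 a positive interaction. Of 20 cytosolic aminoacyl-tRNA synthetases, 11 were negative, among them SARS (-1.01) and AARS (-0.64), and 5 were positive, so the family did not move as a unit.

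The oxidative stress genes under NRF2 formed a further negative group, with 22 of 32 negative, 2 positive and a median of -0.29. FTH1, the heavy chain of the iron store ferritin, was among the most abundant genes of the study and has many pseudogenes with which reads can be shared. It stood at 555, 584 and 571 RPKM in siControl vehicle, 1513, 1591 and 1785 RPKM in siControl enzalutamide, 902, 942 and 826 RPKM in siGATA2 vehicle and 920, 924 and 904 RPKM in siGATA2 enzalutamide libraries. The interaction of FTH1 was -1.47 ± 0.10 (SE, adjusted p = 6.2e-06), and the siGATA2 change was 0.04 ± 0.07. HMOX1, which breaks down haem, had an interaction of -1.60, SRXN1, which repairs oxidized peroxiredoxins, one of -0.59, and TXNRD1, the cytosolic thioredoxin reductase, one of -0.34.

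Outside these lists, S100P, a small calcium-binding protein, was at 19.3, 16.8 and 18.8 RPKM in siControl vehicle, 111, 134 and 126 RPKM in siControl enzalutamide, 25.6, 26.5 and 23.6 RPKM in siGATA2 vehicle and 28.2, 31.97 and 30.8 RPKM in siGATA2 enzalutamide libraries. Its interaction of -2.49 ± 0.11 (SE, adjusted p = 8.7e-07) was close to that of CHAC1. DDIT4, an inhibitor of mTORC1, had an interaction of -1.65, the stress-induced cytokine GDF15 one of -1.41, the calpain gene CAPN5 one of -1.67, the non-coding RNA gene LINC01133 one of -1.58 and the stress-induced transcription factor ATF3 one of -1.35. GDF15, DDIT4 and ATF3 were already higher in siGATA2 vehicle than in siControl vehicle libraries, with log2 differences of 0.995, 0.83 and 1.15, whereas CHAC1 and ASNS were lower, with -1.78 and -1.14. Of the 103 genes with an interaction below -1, the siGATA2 vehicle level was called above the siControl vehicle level in 34 and below it in 36. With enzalutamide it was called above in 1 and below in 94. Of all 20369 genes, 4928 were called above and 6394 below in vehicle, and 5367 and 5729 with enzalutamide. These comparisons share libraries with the interaction and are given as levels.

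**Figure D2:**
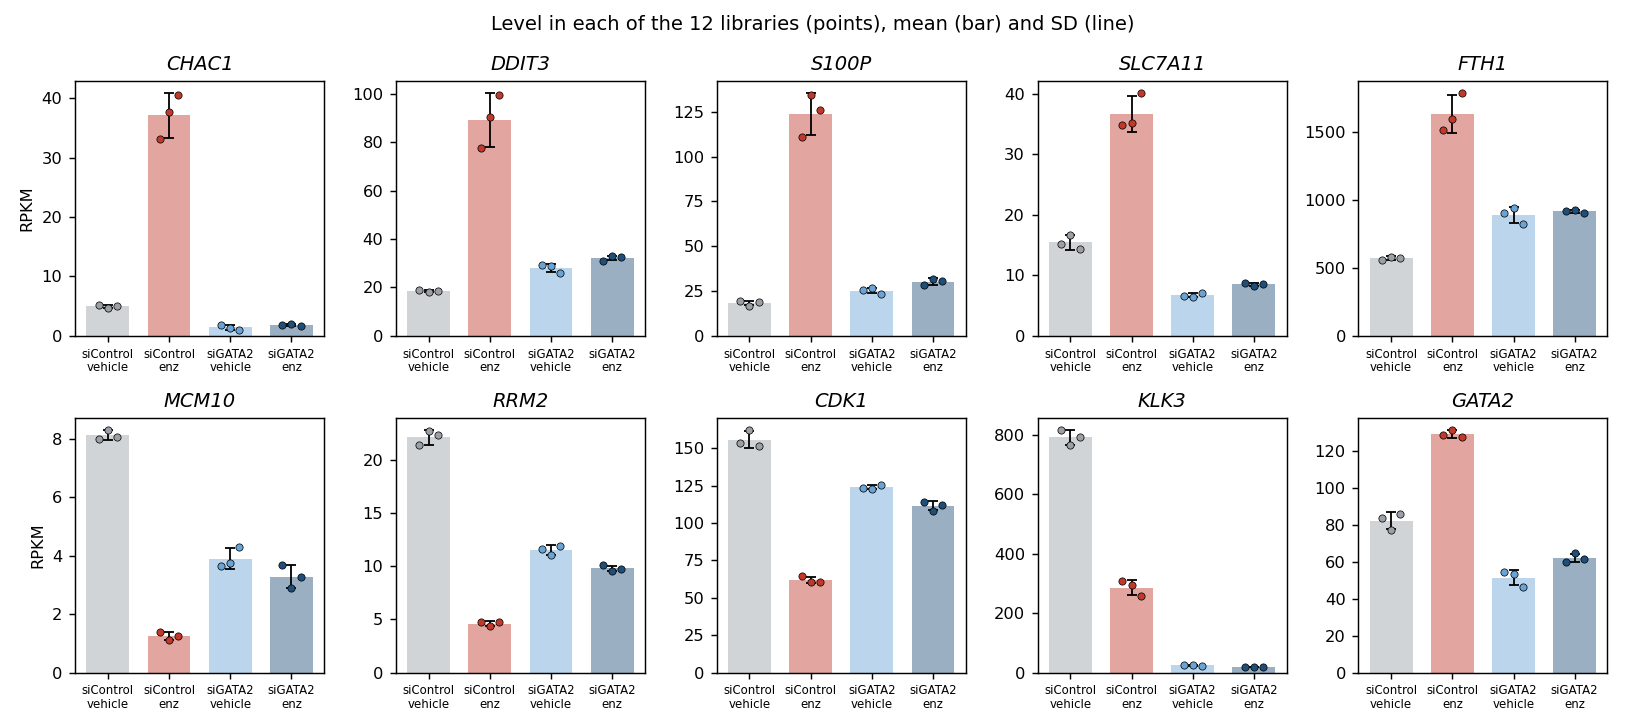
RPKM of 10 genes in the 12 libraries (points), with the mean (bar) and SD (line) of each group of 3; each panel has its own vertical axis from 0, and enz stands for enzalutamide. In CHAC1, DDIT3, S100P, SLC7A11 and FTH1 the siControl enzalutamide group stands above the other 3 groups, and in MCM10, RRM2 and CDK1 it stands below them. KLK3 is lowest in the siGATA2 groups.

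The positive interactions were led by DNA replication, and 48 of the 49 replication and G1/S genes tested were called positive. None was called negative, and 0 had a negative interaction at an unadjusted p below 0.05. The median interaction was 1.28, made of a median change of -1.43 in siControl cells and -0.15 in siGATA2 cells, and 36 of the 49 were above 1. The 1 member not called was POLE, the catalytic subunit of polymerase epsilon (0.17, adjusted p = 0.13). Under the 21 alternative settings 47 or 48 members were called positive.

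MCM10, a factor needed to activate the replicative helicase, was at 8.00, 8.31 and 8.07 RPKM in siControl vehicle, 1.41, 1.12 and 1.26 RPKM in siControl enzalutamide, 3.64, 3.73 and 4.31 RPKM in siGATA2 vehicle and 3.67, 2.89 and 3.28 RPKM in siGATA2 enzalutamide libraries. The siControl enzalutamide libraries were the lowest of the 4 groups, and the siGATA2 groups overlapped. Its interaction was 2.36 ± 0.14 (SE, adjusted p = 2.6e-06), the largest among well expressed genes.

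RRM2, the small subunit of ribonucleotide reductase, was at 21.4, 22.7 and 22.3 RPKM in siControl vehicle, 4.73, 4.35 and 4.73 RPKM in siControl enzalutamide, 11.6, 11.002 and 11.9 RPKM in siGATA2 vehicle and 10.1, 9.57 and 9.73 RPKM in siGATA2 enzalutamide libraries. The siGATA2 groups did not overlap, their difference was -0.23 ± 0.04 (SE, adjusted p = 0.056), and the interaction was 2.01 ± 0.06 (SE, adjusted p = 1.1e-07). CCNE2, a cyclin that drives entry into S phase, fell by 2.03 in siControl cells and measured -0.01 ± 0.12 in siGATA2 cells. The helicase subunit MCM4 had an interaction of 2.05, the licensing factor CDC6 one of 1.87, the replicative helicase components CDC45 and GINS2 1.91 and 1.87, the ubiquitin ligase adaptor DTL 1.98, the cohesin acetyltransferase ESCO2 1.95, the nuclease EXO1 2.05, FAM111B 2.34 and the zinc-finger gene ZNF367 1.99.

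Repair by homologous recombination and mitosis had the same direction but not the same size. Of 27 repair genes, 25 were positive and 0 negative (0 also at an unadjusted p below 0.05), with a median of 1.07; RBBP8 (0.36, adjusted p = 0.070) and the kinase gene ATM (0.12, adjusted p = 0.34) were not called. Of 49 mitosis and spindle genes, 46 were positive and 0 negative (0 at an unadjusted p below 0.05), with a median of 0.59, and CENPA, KIF18A and CDC20 were not called. The median change in siControl cells was -1.26 for the repair genes and -0.74 for the mitosis genes, and in siGATA2 cells -0.07 and -0.16. CDK1, the kinase that drives mitosis, was at 153, 162 and 152 RPKM in siControl vehicle, 64.4, 60.4 and 60.7 RPKM in siControl enzalutamide, 124, 123 and 125 RPKM in siGATA2 vehicle and 114, 108 and 112 RPKM in siGATA2 enzalutamide libraries. Both drops separated their groups, but that in siGATA2 cells (-0.15 ± 0.03 SE) did not pass the test (adjusted p = 0.13), and the interaction was 1.18 ± 0.05 (SE, adjusted p = 8.1e-07). The mitosis list held 9 of the 84 genes called in siGATA2 cells. Among them BIRC5, the mitotic regulator survivin, fell by 1.02 in siControl and by 0.23 in siGATA2 cells, and MYBL2, a transcription factor of the G2/M program, fell by 1.60 and by 0.28.

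Of the 217 genes with an interaction above 1, the siGATA2 vehicle level was called below the siControl vehicle level in 192 and above it in 4. The median difference was -0.87. With enzalutamide it was called above in 142 and below in 29, with a median of 0.51. Of all 20369 genes, 6394 were called below and 4928 above in vehicle, and 5729 and 5367 with enzalutamide. The interaction is the difference with enzalutamide minus that with vehicle. Choosing genes by it favours these signs, so they are given as levels only. For the replication list the corresponding medians were -0.87 and 0.50. In levels, the siGATA2 cells held less replication mRNA than untreated siControl cells and more than siControl cells with enzalutamide, by these medians, with the drug or without it. In these bulk libraries a smaller share of dividing cells and less of these mRNAs per cell cannot be told apart.

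Androgen-induced genes, which androgens raise in prostate cells, had 29 positive and 2 negative interactions of 44 tested, with a median of 0.35. KLK3, the gene of prostate-specific antigen, was at 816, 765 and 793 RPKM in siControl vehicle, 307, 294 and 256 RPKM in siControl enzalutamide, 26.3, 24.2 and 21.7 RPKM in siGATA2 vehicle and 17.6, 19.03 and 18.8 RPKM in siGATA2 enzalutamide libraries. The 4 groups did not overlap. KLK3 fell by 1.47 with enzalutamide in siControl cells and differed by -0.38 ± 0.08 (SE, adjusted p = 0.079) in siGATA2 cells, and its interaction was 1.10 ± 0.11 (SE, adjusted p = 7.1e-05). The siGATA2 pool alone changed KLK3 by -5.04 on the log2 scale, and KLK3 shares sequence with its neighbour KLK2. TMPRSS2, a serine protease gene, had an interaction of 0.43, FKBP5, a co-chaperone of HSP90, 0.66, the condensin subunit NCAPD3 0.89 and the centromere protein CENPN 0.74. The 2 negative members were ERRFI1, an inhibitor of EGFR signalling (-0.46), and AZGP1 (-0.25). The prostate luminal markers had 7 positive and 0 negative interactions of 12 (0 negative at an unadjusted p below 0.05).

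Among the genes the study names, TSC22D3, a glucocorticoid-responsive gene also known as GILZ, was at 33.1, 31.2 and 33.4 RPKM in siControl vehicle, 90.1, 92.3 and 92.6 RPKM in siControl enzalutamide, 21.5, 22.7 and 20.6 RPKM in siGATA2 vehicle and 29.6, 31.8 and 29.99 RPKM in siGATA2 enzalutamide libraries. It rose in both kinds of cell, by 1.49 and by 0.50 (adjusted p = 0.00077), and the interaction of -0.99 ± 0.06 (SE, adjusted p = 2.3e-06) measured the gap. VEGFA, the angiogenic growth factor, rose by 1.13 in siControl cells and had an interaction of -1.33 ± 0.19 (SE, adjusted p = 0.00072). VEGFA in siGATA2 vehicle libraries (44.8, 40.8 and 30.2 RPKM) was nearly as high as in siControl enzalutamide libraries (40.1, 45.0 and 51.7 RPKM). The glucocorticoid receptor gene NR3C1 and the hyaluronan-binding CEMIP never exceeded 0.1 RPKM in any library, so that each value rested on a few reads, and their interactions (-0.27 and -0.40, both adjusted p = 0.020) lost their calls in 1 and 3 of the alternative settings. LAMP3, a lysosomal membrane protein, was between 0.234 and 0.553 RPKM in siControl enzalutamide libraries and at or under 0.0305 RPKM in the other 9, 2 of which listed it at 0 (interaction -1.93). CPEB4, a regulator of polyadenylation, had an interaction of -0.42. All 11 tested genes of this list were called, 7 negative and 4 positive, but the study singled them out with these samples in hand, so their direction here is no independent evidence.

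Several other lists had more negative than positive interactions, and their medians are read beside 0.015 for all genes. The p53 targets had 16 negative and 0 positive interactions of 23 (0 positive at an unadjusted p below 0.05; median -0.30). Among them CDKN1A, which encodes the CDK inhibitor p21, was at 81.7 ± 4.75 and 160 ± 9.28 RPKM (SD, n = 3) in siControl and at 122 ± 11.9 and 127 ± 7.77 RPKM in siGATA2 cells, with an interaction of -0.91. A second CDK inhibitor, CDKN1B (p27), averaged 36.4 and 58.2 RPKM in siControl cells without and with enzalutamide, against 59.7 and 59.8 RPKM after the siGATA2 pool (-0.67). The core circadian clock had 12 negative and 0 positive of 19 (0 positive at an unadjusted p below 0.05; median -0.54), led by the repressor NR1D1 (-1.02). Of 45 cytosolic ribosomal proteins, 21 were negative and 0 positive (0 positive at an unadjusted p below 0.05), with a median of -0.23; under quantile normalization these became 6, 1 and -0.058, the negative count reached 33 among genes with a mean of at least 1 RPKM, it was 10 or 11 without siControl enzalutamide replicate 2, siGATA2 vehicle replicate 2 or siGATA2 enzalutamide replicates 1 or 3, and many of these genes have pseudogenes. Lysosome and autophagy genes had 12 negative and 4 positive of 27, interferon and antigen presentation genes 10 and 1 of 35, immediate early genes 6 and 1 of 29, growth factor receptors and IGF genes 7 and 2 of 23, BCL2 family genes 5 and 0 of 15 (1 positive at an unadjusted p below 0.05), and glucocorticoid receptor targets 9 and 5 of 21. Some of these short counts rested on single libraries. Without siGATA2 vehicle replicate 3 the interferon list had 7 positive members and the immediate early list 11 negative ones. Over the 21 alternative settings the BCL2 family had 3 to 6 negative members and the glucocorticoid receptor targets 2 to 5 positive ones.

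**Figure D3:**
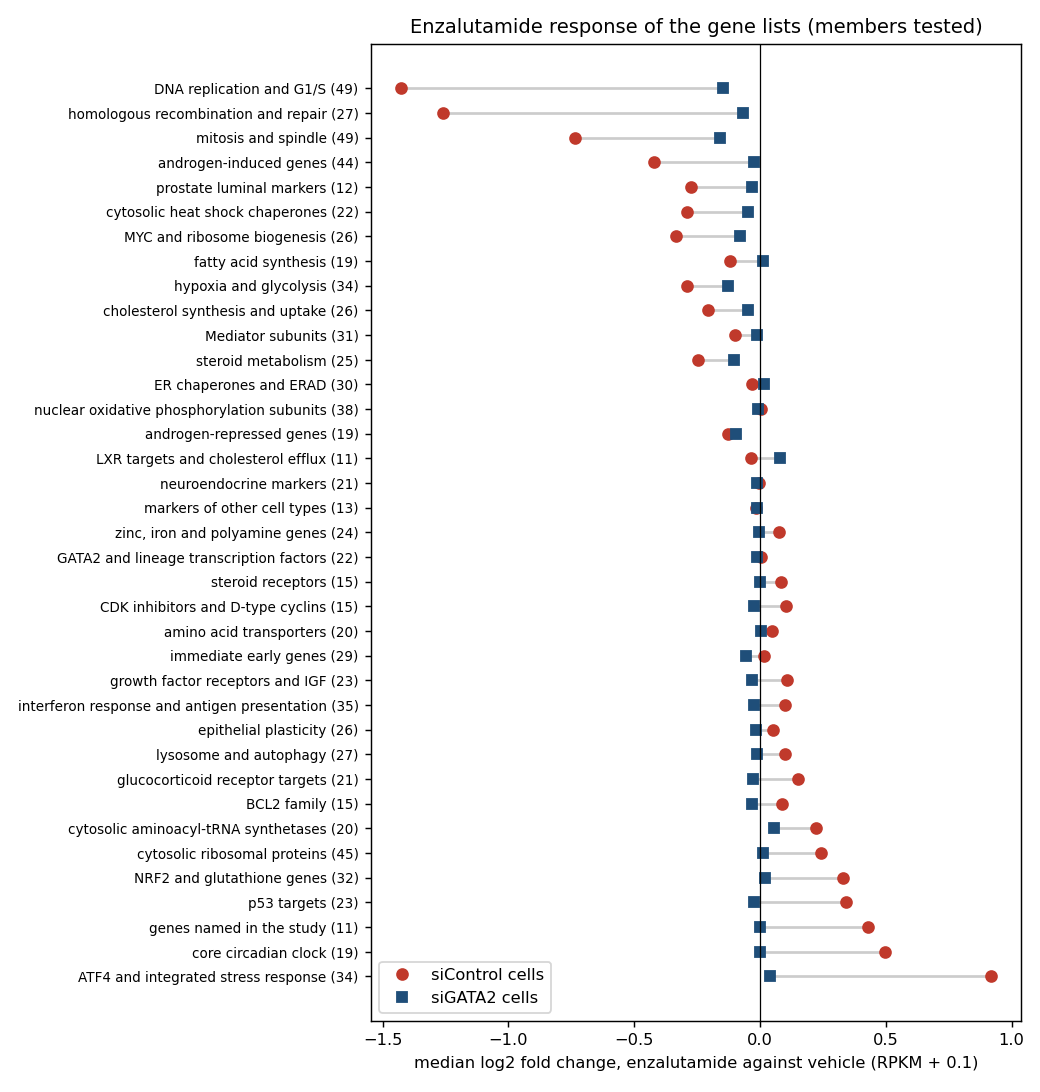
Median log2 fold change with enzalutamide of each gene list in siControl cells (red circles) and siGATA2 cells (blue squares), with the number of members tested in brackets and lists ordered by their median interaction. The red circles run from -1.43 for DNA replication to 0.92 for the ATF4 list, while the blue squares stay close to 0.

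In the lists of metabolic and folding genes, more members were called positive than negative, as among all genes tested (15.0% against 10.8%). Cytosolic heat shock chaperones had 12 positive and 1 negative of 22, with HSP90AA1, the inducible HSP90 that folds steroid receptors, at 0.70, and HSPA1B, whose reads cannot be told from those of its near-identical copy HSPA1A, at 0.61. Cholesterol genes had 13 and 1 of 26 (8 positive without siGATA2 enzalutamide replicate 3), with the sterol isomerase EBP at 0.58. Fatty acid synthesis had 10 and 1 of 19, with the desaturase FADS2 at 0.75. MYC and ribosome biogenesis genes had 13 and 1 of 26, with the snoRNP protein NOP58 at 0.82. Hypoxia and glycolysis genes had 9 and 1 of 34. Their positive share of 26.5% was near the 24.9% of all genes from 10 to 100 RPKM. LDHA, which makes lactate from pyruvate, was at 157, 154 and 151 RPKM in siControl vehicle, 68.2, 63.7 and 64.5 RPKM in siControl enzalutamide, 180, 185 and 161 RPKM in siGATA2 vehicle and 145, 154 and 151 RPKM in siGATA2 enzalutamide libraries, and its interaction was 1.01 ± 0.07 (SE, adjusted p = 7.5e-06). ER chaperones and degradation factors had 13 positive and 7 negative of 30, with the stress sensor ERN1 (-1.13) and the chaperone-like factor MANF (0.57) on opposite sides.

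The other lists had members in both directions, and their counts are read beside the background of 10.8% negative and 15.0% positive. That background covers all genes tested and was higher among better expressed ones. At a mean of 1 to 10 RPKM it was 12.8% and 19.8%, and at 10 to 100 RPKM 18.6% and 24.9%. The lists above are read beside the same shares. The Mediator complex had 8 positive and 3 negative of 31, oxidative phosphorylation subunits 8 and 2 of 38, steroid metabolism 7 and 4 of 25, androgen-repressed genes 7 and 3 of 19, lineage transcription factors 6 and 4 of 22, steroid receptors 2 and 2 of 15, CDK inhibitors and D-type cyclins 5 and 4 of 15, zinc, iron and polyamine genes 7 and 5 of 24, epithelial plasticity genes 2 and 3 of 26, LXR targets 1 and 1 of 11, and neuroendocrine markers 1 and 1 of 21. Oxidative phosphorylation had 2 to 9 positive members over the alternative settings, zinc, iron and polyamine genes 4 to 7, steroid metabolism 4 to 7, and epithelial plasticity 3 to 6 negative ones. The markers of other cell types had 2 positive and 1 negative of 13, the negative one being the lysosomal protein gene CD68 (-0.42).

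The interaction was then described by expression level, in classes of the mean RPKM over the 12 libraries. The share of genes called climbed with the level: 2.14% negative and 2.92% positive among 5042 genes under 0.1 RPKM, 5.41% and 7.93% of 3328 genes from 0.1 to 1 RPKM, 12.8% and 19.8% of 6074 genes from 1 to 10 RPKM, and 18.6% and 24.9% of 5438 genes from 10 to 100 RPKM. Above 100 RPKM the order of the directions turned, with 27.9% negative and 17.9% positive of 487 genes, and the median of the class was -0.067. This turn depended on the scaling: with quantile normalization the shares were 18.9% and 24.2% and the median 0.006, whereas in the other 20 alternative settings the negative share was the larger. The median SE ranged from 0.0582 in the 10 to 100 RPKM class to 0.203 in the 0.1 to 1 RPKM class, so the smallest interaction that could be called differed between classes.

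The size of called interactions had another order. Called negative genes had a median size of 0.728 from 0.1 to 1 RPKM, 0.397 from 1 to 10 RPKM and 0.287 from 10 to 100 RPKM, and called positive genes 0.725, 0.424 and 0.288. Interactions above 1 were 1.84% of the genes from 1 to 10 RPKM, the class of MCM10, EXO1 and DTL, and 0.570% of those from 10 to 100 RPKM. When the classes were taken from the siControl vehicle mean instead, 15 genes under 0.1 RPKM had an interaction below -1 and 2 had one above 1, in a class where the pseudocount leaves little room for a fall.

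**Figure D4:**
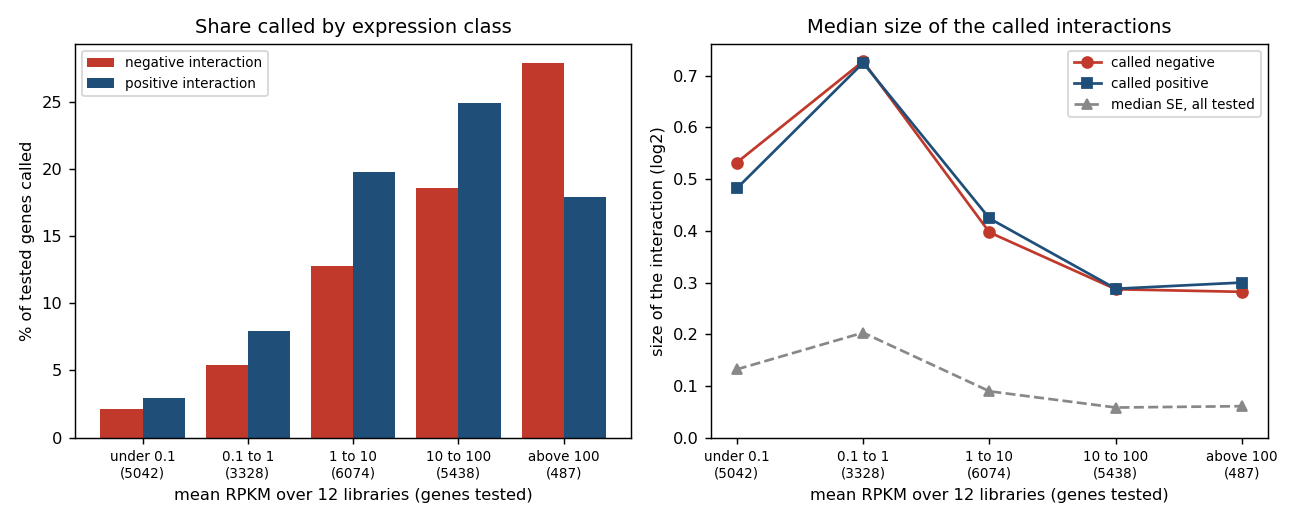
Left, percentage of tested genes called for a negative (red) or positive (blue) interaction in 5 classes of mean RPKM over the 12 libraries, with the number of genes tested in brackets. Right, median absolute interaction (log2) of the called genes, with the median SE of all tested genes of the class (dashed). The negative share rises from 2.14% to 27.9% over the 5 classes. The positive share rises from 2.92% to 24.9% at 10 to 100 RPKM and is 17.9% above 100 RPKM. The median size is highest from 0.1 to 1 RPKM.

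Genes with a mean log2(RPKM + 0.1) under 1 were left out of the ranking of well expressed genes, also where they stood higher in siControl enzalutamide libraries. Among them was FIBIN, a secreted protein gene. FIBIN was at 0.113, 0.0672 and 0.0906 RPKM in siControl vehicle and 1.28, 1.39 and 1.65 RPKM in siControl enzalutamide libraries. It was at or under 0.0823 RPKM in all 6 siGATA2 libraries (interaction -3.02 ± 0.23 SE, limma adjusted p = 1.3e-05). FGF21, a hormone gene induced by ATF4, averaged 0.677 and 5.59 RPKM in siControl and 0.182 and 0.203 RPKM in siGATA2 cells (-2.80). PRSS1, a trypsinogen gene with close paralogs, was at 2.82, 2.28 and 2.66 RPKM in siControl vehicle and at 17.0, 17.9 and 18.6 RPKM in siControl enzalutamide libraries, while all 6 siGATA2 libraries were at or under 0.106 RPKM (-2.42). Under 0.1 RPKM the most extreme calls were microRNA and small nucleolar RNA genes, and MIR8085 and MIR4517 were among those from 0.1 to 1 RPKM. MIR8085 was listed at 0 in all siControl vehicle and all siGATA2 enzalutamide libraries, at 0.227, 0.248 and 0.618 RPKM in siControl enzalutamide and at 0.224, 0.224 and 0.211 RPKM in siGATA2 vehicle libraries, which gave the value of -3.79. The small nucleolar RNA gene SNORD72 lost its call in 14 of the alternative settings, and the neurotrophic factor gene CNTF in 7.

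A small group of genes did respond in siGATA2 cells. Of the 45 that rose there, 37 also rose in siControl cells, 6 were not called and 2 fell; of the 39 that fell, 33 also fell, 4 were not called and 2 rose. The count of 84 ranged from 27 to 93 when single libraries were left out. The genes in the next sentences were picked after their values were seen. UGT2B17, which glucuronidates androgens and has close paralogs, was at 28.96, 29.79 and 28.76 RPKM in siControl vehicle, 18.6, 17.3 and 18.7 RPKM in siControl enzalutamide, 11.9, 11.6 and 12.2 RPKM in siGATA2 vehicle and 6.80, 6.97 and 6.69 RPKM in siGATA2 enzalutamide libraries. UGT2B17 fell by 0.68 in siControl and by 0.79 in siGATA2 cells (adjusted p = 7.1e-06), and its interaction was -0.11 ± 0.05 (SE, adjusted p = 0.12).

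DHRS3, a retinal reductase, was at 9.87, 8.53 and 9.51 RPKM in siControl vehicle, 21.7, 22.8 and 21.8 RPKM in siControl enzalutamide, 18.4, 18.7 and 15.6 RPKM in siGATA2 vehicle and 31.8, 34.1 and 32.1 RPKM in siGATA2 enzalutamide libraries. It rose by 1.24 and by 0.89 (adjusted p = 0.00064), with an interaction of -0.35 ± 0.10 (SE, adjusted p = 0.027). BAMBI, a decoy receptor for TGF-β signals, rose by 0.77 and by 0.54 (adjusted p = 3.4e-05). The nuclear receptor corepressor NRIP1 rose by 0.33 and by 0.48 (adjusted p = 0.0029), and the prostatic acid phosphatase gene ACPP by 0.39 and by 0.31 (adjusted p = 0.016). The neuropeptide gene GAL fell by 0.39 and by 0.37 (adjusted p = 0.0047), and MAOA, which oxidizes monoamines, by 0.23 and by 0.26 (adjusted p = 0.0076). In GAL, MAOA, ACPP and NRIP1 the interaction was not called, and its size was at most 0.15.

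The genes with an interaction were read in the untransfected cells of the ligand experiment, none of whose libraries entered the interaction. Of the 103 genes below -1, 85 could be tested there, and of the 217 above 1, 188 could. With enzalutamide for 24 h, 59 of the 85 rose (69.4%, beside 16.4% of the 15555 genes tested) and 0 fell (beside 17.0%), with a median log2 fold change of 0.86. By edgeR 0 of the 85 fell at an unadjusted p below 0.05, and by DESeq2 0 fell. Of the 188 genes above 1, 158 fell (84.0%) and 0 rose, with a median of -1.11; 1 rose by edgeR at an unadjusted p below 0.05 and 0 by DESeq2. With DHT for 24 h, 39 of the 85 fell (45.9%, beside 23.2% of all genes) and 6 rose, with a median of -0.39, and 150 of the 188 rose (79.8%, beside 26.9%) and 11 fell, with a median of 0.81. Genes chosen from the siRNA experiment thus moved, where called, with 10 µM enzalutamide in the direction they had taken in siControl cells with 25 µM. With DHT most of the 188 genes moved the other way, whereas 45.9% of the 85 did.

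All 12 of the most positive well expressed genes fell with enzalutamide and rose with DHT in the ligand experiment. MCM10 had log2 fold changes of -1.70 with enzalutamide and 1.17 with DHT, RRM2 of -1.67 and 0.99, and CDK1 of -1.49 and 0.69. All 12 of the most negative genes rose with enzalutamide, but their DHT values had both signs. CHAC1 had 1.47 with enzalutamide and -0.68 with DHT, and DDIT3 1.37 and -0.54, and DDIT4, FTH1 and LINC01133 also fell with DHT. FAM129A, ATF3 and GDF15 rose with DHT, by 0.50, 0.34 and 0.20, and TRIB3, CAPN5 and HMOX1 were not called (0.08, 0.02 and -0.22). SLC7A11 rose by 1.46 with enzalutamide and measured -0.23 with DHT (edgeR adjusted p = 0.058), and S100P rose by 0.99 and measured -0.08 (adjusted p = 0.66). KLK3 had -1.22 with enzalutamide and 3.05 with DHT. GATA2 differed between the experiments, with -0.19 after 10 µM enzalutamide here and 0.65 after 25 µM in siControl cells.

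**Figure D5:**
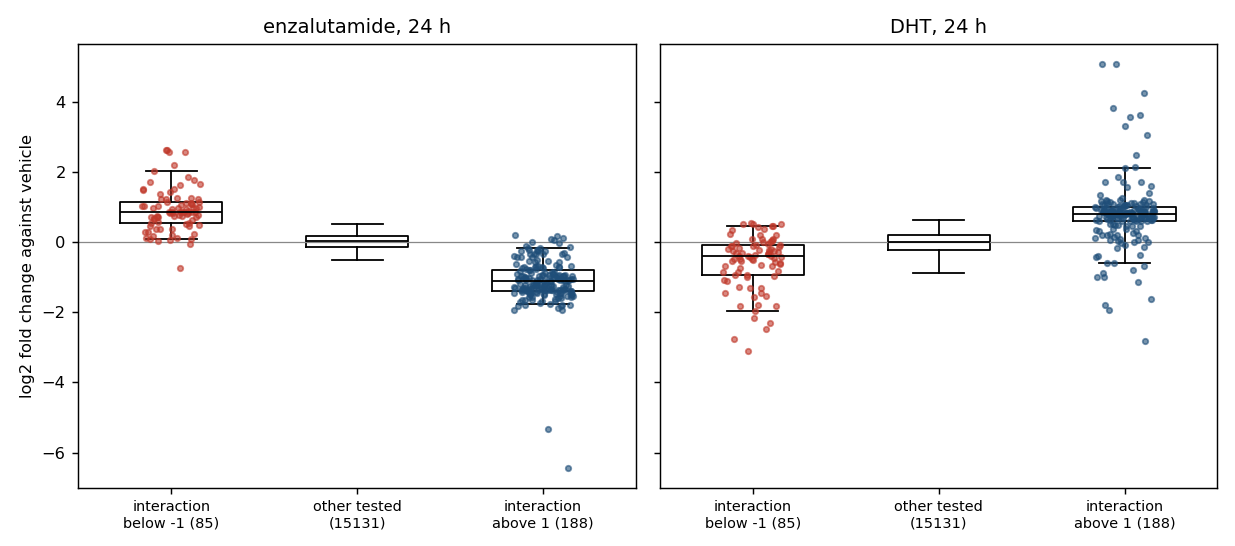
Log2 fold change against vehicle (edgeR) in untransfected LNCaP cells after 24 h of enzalutamide (left) or DHT (right), for the 85 genes with an interaction below -1, the other 15131 genes and the 188 genes with an interaction above 1. Boxes give the quartiles and median, whiskers the 5th and 95th percentiles, and points the single genes of the outer groups, whose medians are 0.86 and -1.11 with enzalutamide and -0.39 and 0.81 with DHT.

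Genes chosen in the ligand experiment gave the reverse reading. The 280 genes that fell more than 2-fold with 10 µM enzalutamide had a median change of -1.02 in siControl and -0.149 in siGATA2 cells, and 14 of them were called down in siGATA2 cells against 246 in siControl cells. The 109 that rose more than 2-fold had medians of 0.639 and 0.03, with 4 and 69 called. Across 15404 genes, Pearson's r between the enzalutamide response of the ligand experiment and that of siControl cells was 0.582, and with that of siGATA2 cells it was 0.254.

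The promoters were searched because whole gene groups moved together. RefSeq promoter sequences (GRCh38.p14) were at hand for 67 of the 103 genes below -1, 151 of the 217 above 1 and 14318 of all tested, and the 250 bases before each start site were read on both strands. The C/EBP-ATF response element TGATGNAAN, the kind of site ATF4 binds, was in 11 of the 67 (16.4%), beside 3 of the 151 (1.99%) and 1.76% of all tested. The E2F element TTTGGCGC or TTTCGCGC was in 12 of the 151 (7.95%), in 0 of the 67 and in 1.38% of all tested, and in 8 of 42 replication genes. The cell cycle homology element TTTGAA was in 23 of 42 mitosis genes (54.8%), in 1 of 42 replication genes and in 9.33% of all tested, beside 2.99% of the 67 and 9.93% of the 151. The GATA motif AGATAA was in 6 of the 67 (8.96%), 9 of the 151 (5.96%) and 5.78% of all tested. Over all 27305 promoters of the table these 4 shares were 3.18%, 0.996%, 13.6% and 9.37%, and none of the 4 elements contains another. Further elements were searched: the steroid receptor half-site AGAACA was in 13.4% of the 67 and 9.93% of the 151 (8.53% of all tested), the NRF2 element TGACNNNGC in 8.96% and 13.2% (11.9%), the E-box CACGTG in 5.97% and 9.27% (8.33%), and CCAAT in 37.3% and 49.7% (34.4%). A match is a run of letters in this window and was not tested as a binding site.

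The windows that follow are 60-base stretches from the 250 bases upstream of named genes that held a match, shown 5′ to 3′ on the gene's strand with the matches in capitals.
CHAC1: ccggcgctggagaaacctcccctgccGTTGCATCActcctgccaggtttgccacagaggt
S100P: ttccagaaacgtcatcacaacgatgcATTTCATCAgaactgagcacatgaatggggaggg
ATF3: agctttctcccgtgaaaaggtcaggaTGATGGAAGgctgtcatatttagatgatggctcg
ZNF367: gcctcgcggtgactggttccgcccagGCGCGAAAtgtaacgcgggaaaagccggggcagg
DTL: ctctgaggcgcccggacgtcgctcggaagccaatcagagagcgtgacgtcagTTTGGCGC
CDK1: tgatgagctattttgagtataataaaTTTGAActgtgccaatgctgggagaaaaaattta
They lie at chr15:40953235-40953294 (plus strand, CHAC1), chr4:6693728-6693787 (plus, S100P), chr1:212565190-212565249 (plus, ATF3), chr9:96418372-96418431 (minus, ZNF367), chr1:212035688-212035747 (plus, DTL) and chr10:60778144-60778203 (plus, CDK1). The capitals are the response element of the ATF4 kind in the first 3, the E2F element in ZNF367 and DTL, and the cell cycle homology element in CDK1. Their interactions were -2.51, -2.49 and -1.35 for CHAC1, S100P and ATF3 and 1.99, 1.98 and 1.18 for ZNF367, DTL and CDK1. No match of the elements searched for their group was found in the 250 bases of DDIT3, TRIB3, DDIT4, LINC01133, GDF15, MCM10, EXO1, RRM2, CDC45, CDC6 or GINS2, nor a cell cycle homology element in KLK3.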

How the data were processed

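RNA-seq was deposited for 24 LNCaP samples. Per the labels, poly(A) RNA was enriched and directional libraries were sequenced, and the submitters' processing notes name TopHat2 2.0, Partek and hg19. For the 12 siRNA libraries the authors deposited RPKM values of 23028 genes, and for the ligand experiment estimated counts, which were rounded. The siRNA values were tested as log2(RPKM + 0.1) with limma 3.58.1 in 1 model of 4 conditions, with a variance trend and without a replicate block, for genes above 0 in at least 3 libraries. A fold change on this scale understates the change of low genes. Calls had a Benjamini-Hochberg adjusted p below 0.05. Ligand libraries, with 38894849 to 59985230 estimated counts, were tested with edgeR 4.0.16 (quasi-likelihood, TMM, default filter), and DESeq2 1.42.0 was an alternative. The 3 vehicle columns that carry replicate number 1 were summed, since they differed from each other less (mean chi-square per gene 1.53 to 1.56, where 1 is sampling noise) than from replicate 2 (3.56 to 3.74), which left 2 vehicle samples. The script was tested on simulated data.

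The genes and the 38 lists were chosen with earlier results of these data known. Genes named in the text are the 12 most negative and 12 most positive called genes with a mean log2 of at least 1, the 3 members of each list with the smallest p and a mean log2 of at least 0, the 2 most extreme called genes in each direction of each level class, and the genes the study names with GATA2, apart from some genes that are not reported here; list members that went against their list, and genes called in siGATA2 cells, were added after their values were seen. Replicate numbers were not used to pair the samples in the main fit. Relative depth came from the most frequent ratio of low RPKM values between libraries.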

Additional observations from a re-analysis of the deposited data

Results flagged for a closer look

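The interaction is itself a test of whether the response to enzalutamide differed between siControl and siGATA2 cells, so the results below stand out because that difference passed the test. They are 2209 genes with a negative and 3055 with a positive interaction. Among well expressed genes the 12 most negative were CHAC1 (-2.51), S100P (-2.49), DDIT3 (-2.06), FAM129A (-2.05), TRIB3 (-1.89), CAPN5 (-1.67), DDIT4 (-1.65), HMOX1 (-1.60), LINC01133 (-1.58), FTH1 (-1.47), GDF15 (-1.41) and ATF3 (-1.35). The 12 most positive were MCM10 (2.36), FAM111B (2.34), MCM4 (2.05), EXO1 (2.05), CCNE2 (2.02), RRM2 (2.01), ZNF367 (1.99), DTL (1.98), ESCO2 (1.95), CDC45 (1.91), CDC6 (1.87) and GINS2 (1.87). Groups of 3 libraries were too small for a search for single outlying samples.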

How the results depend on the processing

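The counts of negative and positive interactions stayed within 1.5 times their main values under the 21 alternative fits, with 4279 to 5804 genes called in all, 79.5% to 98.3% of the main calls kept and 0 called with the opposite sign. With the replicate number as a block, 4775 genes were called, of which 4629 were shared with the main calls, and the genes called in siGATA2 cells fell to 29. No pairing by number was seen, as the deviations of same-numbered libraries correlated between -0.0714 and 0.0647. These correlations ran over all genes tested, many of them weakly expressed, so they cannot exclude a pairing. Leaving out 1 library gave 27 to 93 genes called in siGATA2 cells, against 84 with all 12: 27, 33 and 32 without siGATA2 enzalutamide replicates 1, 2 and 3, 33 and 32 without siGATA2 vehicle replicates 1 and 2, and 55 without siControl vehicle replicate 1. The number of genes past 2-fold depended on the pseudocount by construction: below -1 it was 214 with 0.01 RPKM, 44 with 0.5 and 34 with 1, and above 1 it was 390, 120 and 85. A filter on a mean of at least 1 RPKM left 58 genes below -1. Median-ratio scaling gave 2592 negative and 2719 positive genes, and quantile normalization 2674 and 2715. Of 3065 recomputed values of the 140 named results, 0 changed sign for a gene called in the main or the alternative fit. Sign changes of results called in neither were not counted. In at least 1 setting 12 of the results changed the side of the threshold. The ligand medians moved by at most 0.1, also with the 4 vehicle columns as separate samples, an alternative chosen after seeing the data. Taking level classes from the siControl vehicle mean kept every share called within 1.5 times, but not the shares past 2-fold: above 1 it went from 0.570% to 0.960% in the 10 to 100 RPKM class and from 0.238% to 0.0398% under 0.1 RPKM, where the share below -1 went from 0.139% to 0.299%. The total depth of the siRNA libraries is unknown, so no counting error could be given for low genes.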
